A study of Mus musculus with 2 samples.

Results

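The genes described here encode 10 subunits of the nucleosome remodelling and deacetylase complex (NuRD): the ATPase Chd4, the deacetylases Hdac1 and Hdac2, the scaffold proteins Mta1, Mta2 and Mta3, the methyl-CpG binding domain proteins Mbd2 and Mbd3, and the linkers Gatad2a and Gatad2b. They were chosen by name, and all 10 were found among the 22556 genes of the deposited count table. Messenger RNA had been sequenced before any Xist induction in iXist-ChrX-Dom cells, which are female embryonic stem cells of the mouse (mESCs) from a cross of Dom/129S with Cast. In this line a TetOn promoter stood in place of the native Xist promoter on the Dom/129S allele. The cells were untreated (0 h), although their cell type field reads mESC to NPC, they were grown in serum with LIF, and feeder fibroblasts were removed by pre-plating. There is 1 group of 2 replicates, so no treatment was compared. The study needed the starting level of each gene ahead of Xist expression, and the question asked of the NuRD genes was at what level each subunit was expressed and how precisely.

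NuRD joins chromatin remodelling and histone deacetylation in a single assembly. CHD4 slides nucleosomes with the energy of ATP. HDAC1 and HDAC2 remove acetyl groups from histone tails and are shared with the SIN3 and CoREST complexes. MTA proteins hold the deacetylases and the histone binding proteins RBBP4 and RBBP7. MBD2, which binds methylated CpG, and MBD3, which binds it poorly in mammals, occupy the same place in alternative forms of the complex, and GATAD2 proteins tie the MBD and MTA part to CHD4. In mESCs, the MBD3 form is known for its part in the exit from pluripotency. Several subunits are encoded by paralogues, so which paralogue has the most mRNA is a natural question of such data. The shares given below are of mRNA and not of forms of the complex.

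Replicate 1 held 23716499 counted fragments and replicate 2 held 20275749. Levels between genes are compared as TPM, the counts per kb of exonic length scaled to sum to 1000000 in each library. A single gene is compared between the libraries as CPM, its count per 1000000 counted fragments. The cells carried transcripts of ES cells, with Tdgf1 at 2282 ± 195 TPM (SD, n = 2), Zfp42 at 846 ± 56.1 TPM and Nanog at 773 ± 35.0 TPM. Dppa5a of the same list stood far apart between the libraries, at 626 and 79.6 TPM. Of 10 ES cell markers, 9 reached 10 counts in both libraries, against 1 of 10 fibroblast markers, 3 of 7 neural precursor markers and 5 of 7 primitive endoderm markers. The summed level of the fibroblast markers was 3.54 TPM in replicate 1 and 1.05 TPM in replicate 2, with Lum at 0 in both. That of the neural precursor markers was 8.87 and 5.82 TPM, with Sox1 and Olig2 at 0 in both, and that of the primitive endoderm markers was 16.5 and 16.0 TPM. Nothing in the labels says that the replicates were separate cultures, so their spread may be technical. In bulk RNA, fewer expressing cells and less RNA per cell cannot be told apart.

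All 10 members reached at least 10 counts in both libraries, a level reached by 56.2% of all genes in the table. The median level of the members was 34.5 TPM, against 1.85 TPM over the 22130 genes with an exonic length, and it was 44.6 TPM in replicate 1 and 28.2 TPM in replicate 2. Members spanned 1.37 TPM for Mbd3 to 326 TPM for Hdac2. Summed over paralogues, the HDAC genes stood highest at 361 ± 32.1 TPM (SD, n = 2). The MTA genes followed at 129 ± 65.7 TPM, then Chd4 at 48.1 ± 22.9 TPM and the GATAD2 genes at 40.5 ± 8.59 TPM. The MBD genes were lowest at 31.7 ± 1.25 TPM. The order of Chd4 and the GATAD2 genes rests on the gene model of Gatad2b, since with only the exonic bases inside the counted span the GATAD2 sum was 53.1 ± 9.00 TPM and Chd4 was at 45.2 ± 21.5 TPM. Between the libraries, the sums of the HDAC genes and of the MTA genes overlapped with no other class. Chd4, at 64.3 and 31.9 TPM, overlapped with both the GATAD2 sum (46.6 and 34.4 TPM) and the MBD sum (32.6 and 30.9 TPM), which did not overlap with each other.

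**Figure D1:**
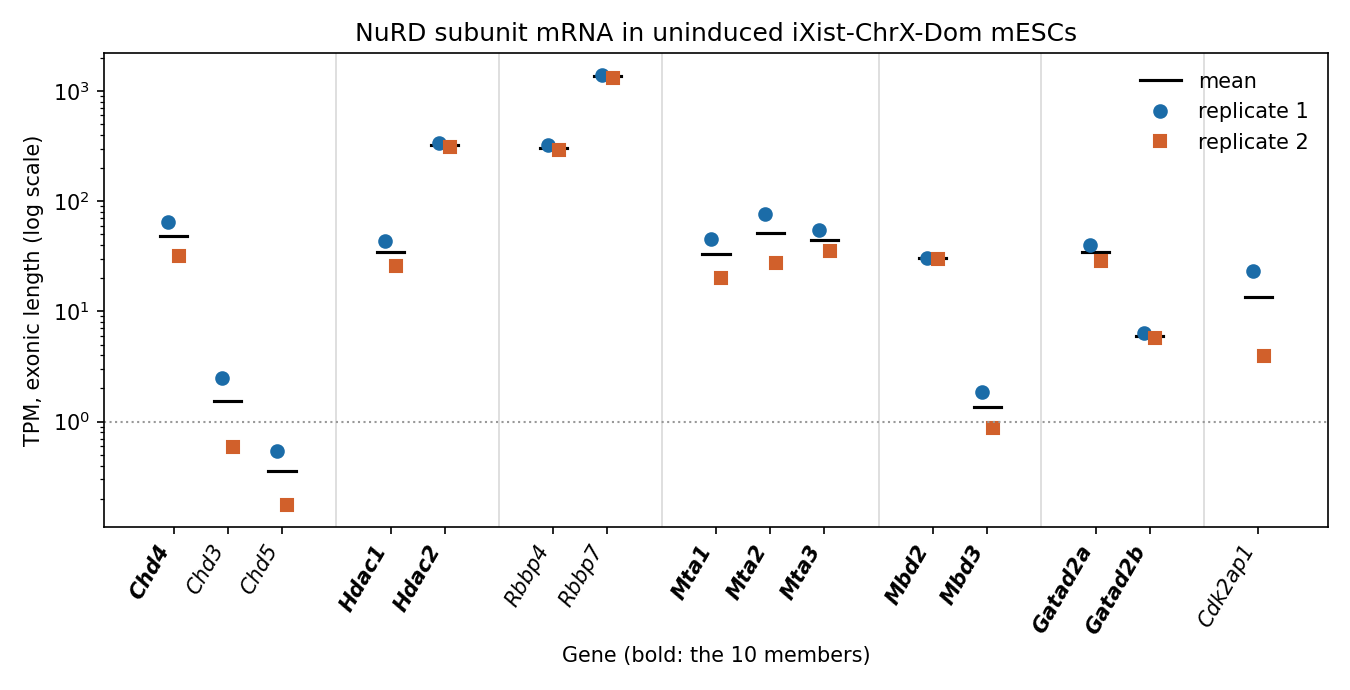
TPM with exonic length (log axis) of 15 NuRD subunit genes in each library, with circles for replicate 1, squares for replicate 2 and a bar for their mean; genes in bold are the 10 members and the dotted line marks 1 TPM. Rbbp7, Hdac2 and Rbbp4 stand highest in both libraries, Mbd3, Chd3 and Chd5 lie near or below 2 TPM, Gatad2b is near 6.04 TPM, and the other 7 members lie between 20.3 and 75.8 TPM.

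Chd4, the remodelling ATPase (chr6:125095981-125130591, plus strand, GRCm38), had 3249 counts in replicate 1 and 1296 in replicate 2, or 64.3 and 31.9 TPM. Its paralogues outside the chosen set are alternative ATPases of the complex. Chd3 had 135 and 26 counts (1.53 ± 1.33 TPM) and Chd5, known mainly from neurons and testis, had 39 and 10 counts (0.36 ± 0.263 TPM). Both libraries therefore placed Chd4 far above Chd3. Per exonic length, Chd4 exceeded Chd3 by 26.0-fold in replicate 1 and by 53.9-fold in replicate 2, a log2 ratio of the mean TPM of 4.97. The distance differed between the libraries, but its direction did not.

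Hdac2 was the most abundant member by a wide margin. Hdac2 (chr10:36974544-37001889, plus strand) had 10819 and 7988 counts, or 340 and 312 TPM. Hdac1 (chr4:129516104-129542713, minus strand) had 664 and 317 counts, or 43.3 and 25.7 TPM. The values of the paralogues did not overlap. Hdac1 supplied 11.3% of the summed HDAC1 and HDAC2 level in replicate 1 and 7.61% in replicate 2, and the log2 ratio of Hdac1 over Hdac2 was −2.97 and −3.60.

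Much of the Hdac1 transcript has a near-identical copy elsewhere in the genome. Of the 50-base words in the Hdac1 transcript, 58.7% also occur in annotated pseudogenes, and 56.4% occur in the processed pseudogene Gm10093 (chr17:78491582-78493025, plus strand), and no such word was found for Hdac2. Over 1444 aligned bases, Gm10093 differed from the Hdac1 coding sequence at 9 positions, while Hdac2 differed from it at 347 of 1441. The start of the coding sequence is printed for both genes because over this stretch the paralogues differ at many bases while Hdac1 and its pseudogene are identical. Capitals in the line of Hdac2 mark bases that differ from Hdac1 in the alignment or have no counterpart there, 32 in all. The 347 differences above leave out bases without a counterpart. The first 150 coding bases of Gm10093 differ from the line of Hdac1 at 0 positions.
Hdac1: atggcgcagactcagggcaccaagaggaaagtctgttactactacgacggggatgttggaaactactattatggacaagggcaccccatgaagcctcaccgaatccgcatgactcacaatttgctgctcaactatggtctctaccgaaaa
Hdac2: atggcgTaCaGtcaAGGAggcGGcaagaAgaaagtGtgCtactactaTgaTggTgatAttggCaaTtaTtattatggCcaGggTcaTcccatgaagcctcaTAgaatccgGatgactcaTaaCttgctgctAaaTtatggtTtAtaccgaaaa

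Where reads are kept only if they align to a single place, fragments from such words are lost. The study's methods give such a STAR setting for its chromatin RNA libraries, in the pipeline whose tools the notes on these samples also name, but do not say whether it was used for the mRNA libraries. With the words that have copies left out of the length, Hdac1 stood at 83.5 TPM in place of 34.5 TPM. Hdac1 then supplied 23.6% and 16.6% of the summed HDAC level, and Hdac2 still exceeded it by 3.24-fold and 5.02-fold in the 2 libraries. Hdac2 was the higher paralogue under each of the lengths tried, but by how much depended on the length.

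With exonic length, none of the 3 scaffold genes supplied most of the MTA level. Mta1 (chr12:113098278-113137206, plus strand) had 975 and 347 counts, Mta2 (chr19:8941875-8952303, plus strand) had 1787 and 525, and Mta3 (chr17:83706163-83821516, plus strand) had 1247 and 647. In TPM, Mta1 stood at 45.8 and 20.3, Mta2 at 75.8 and 27.7, and Mta3 at 54.2 and 35.0. Replicate 1 was the higher library for all 3 genes, and the ranges of the genes overlapped. Mta1 supplied 25.2% ± 1.14 of the summed MTA level (SD, n = 2), Mta2 38.2% ± 6.88 and Mta3 36.5% ± 8.02. Mta2 was above Mta1 in both libraries, with a log2 ratio of 0.73 in replicate 1 and 0.45 in replicate 2. The order of Mta2 and Mta3 was opposite in the 2 libraries, at a log2 ratio of 0.48 in replicate 1 and −0.34 in replicate 2, so these data do not separate them per exonic length. With the deposited length, Mta2 was above Mta3 in both libraries, at a log2 ratio of the means of 3.63.

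Of the MBD genes, Mbd2 carried nearly all of the counts. Mbd2 had 567 and 444 counts, or 30.8 and 30.0 TPM, the smallest log2 ratio between the libraries of any member when library totals set the scale. Mbd3 (chr10:80392539-80399550, minus strand) had 26 and 10 counts, or 1.85 and 0.884 TPM, the lowest of all members in both libraries. Its CPM was 1.10 in replicate 1 (95% exact Poisson interval 0.716 to 1.61) and 0.493 in replicate 2 (0.237 to 0.907), and such intervals cover counting error only. Mbd3 supplied 5.67% and 2.87% of the summed MBD level. The log2 ratio of Mbd3 over Mbd2 was −4.06 in replicate 1 and −5.08 in replicate 2. With the deposited length the log2 ratio of the means was smaller in size, at −1.82.

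No other gene of the table overlapped Mbd3 on either strand, and 0 of its 50-base words were found in another annotated gene. Mbd3 had the highest transcript GC content of the members, 62.9% against 41.9% for Hdac2. Among the 529 genes within 2 percentage points of its GC content, Mbd3 was at percentile 66.9 by mean TPM, against percentile 47.2 among all genes. The part of GC content in the low count was not tested. The first 150 coding bases of Mbd3 and Hdac2, the lowest and the highest member, are printed with G and C in capitals to show that difference, with 64.0% G and C for Mbd3 and 42.7% for Hdac2.
Mbd3: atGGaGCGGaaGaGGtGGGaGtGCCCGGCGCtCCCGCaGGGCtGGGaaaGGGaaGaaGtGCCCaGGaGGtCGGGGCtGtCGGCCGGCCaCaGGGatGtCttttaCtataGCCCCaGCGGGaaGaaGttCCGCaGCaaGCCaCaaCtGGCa
Hdac2: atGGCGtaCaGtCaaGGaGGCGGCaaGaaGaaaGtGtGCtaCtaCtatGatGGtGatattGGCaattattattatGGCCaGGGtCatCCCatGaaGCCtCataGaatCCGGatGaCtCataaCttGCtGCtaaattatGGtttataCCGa

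Gatad2a (chr8:69907076-69996384, minus strand) had 1637 and 941 counts, or 40.2 and 28.7 TPM. Gatad2b (chr3:90293178-90363407, plus strand) had 370 and 265 counts, or 6.39 and 5.69 TPM. The groups of values did not overlap, and Gatad2a supplied 86.3% and 83.5% of the summed GATAD2 level. The table, however, counted fragments over only 24.75% of the exonic bases that GENCODE M21 gives to Gatad2b (1906 of 7701). For the other 9 members that share was 95.8% or more. With only the exonic bases inside the counted span, Gatad2b stood at 22.0 TPM and Gatad2a at 31.1 TPM, and the share of Gatad2a was 60.9% and 55.5%. The log2 ratio of the pair then fell from 2.51 to 0.50. With the deposited length, which includes introns, it was −0.44. Gatad2b had fewer counts than Gatad2a in both libraries. Gatad2a was also the higher per exonic length in both, at a log2 ratio of 0.64 and 0.32 inside the counted span. Of the lengths tried, only the deposited length reversed the pair, while the size of the lead rests on the gene model.

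**Figure D2:**
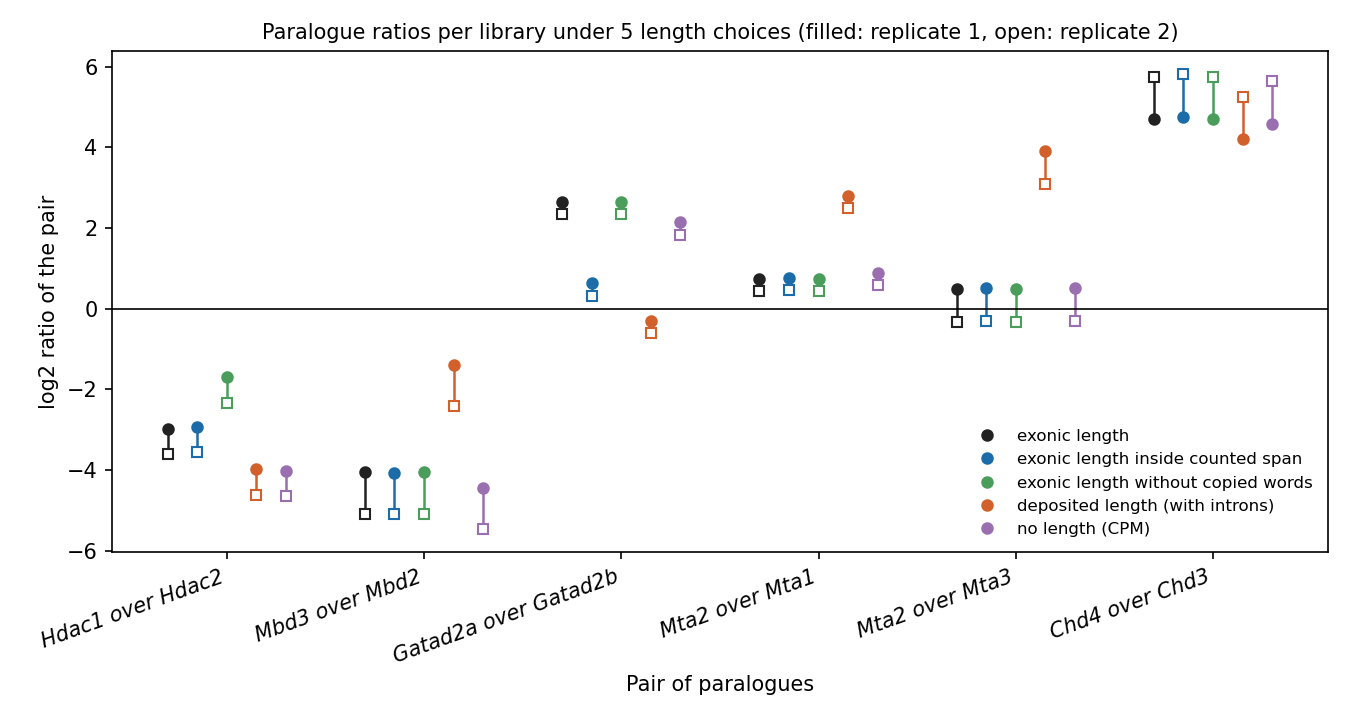
Log2 ratio of each pair of paralogues in replicate 1 (filled circles) and replicate 2 (open squares), joined by a line, under 5 ways of treating gene length. Hdac1 stays below Hdac2, Mbd3 below Mbd2 and Chd4 above Chd3 under all 5, while the mean of Gatad2a over Gatad2b is 2.51 with exonic and −0.44 with deposited length and Mta2 over Mta3 crosses 0 between the libraries in all but the deposited length.

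Ordered by mean TPM, the members ran Hdac2, Mta2, Chd4, Mta3, Hdac1, Gatad2a, Mta1, Mbd2, Gatad2b and Mbd3. Hdac2 at the top and Gatad2b and Mbd3 at the bottom were separated from their neighbours by ranges that did not overlap with exonic length. Hdac2 stayed first and Mbd3 last under the other lengths and by CPM, but Gatad2b took rank 4 with the deposited length, and inside the counted span its 23.3 and 20.8 TPM lay within the range of Mta1 (41.3 and 18.3 TPM). Hdac1 moved from rank 5 to rank 2 without copied words. The 7 members between them, from Mta2 at 51.7 ± 34.0 TPM to Mbd2 at 30.4 ± 0.569 TPM (SD, n = 2), each overlapped with the next in the order. Farther apart in it, Mbd2 (30.8 and 30.0 TPM) lay below both values of Chd4 and of Mta3 with exonic length, but within the range of Mta3 with the deposited length. Replicate 2 alone put Mbd2 at rank 4 and Mta2 at rank 6, whereas replicate 1 alone put them at ranks 8 and 2. With 2 libraries a permutation test of 1 gene against another cannot give a two-sided p below 0.333, so no such test is given.

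Every member had a lower CPM in replicate 2 when library totals set the scale, though Hdac2, Mbd2 and Gatad2b did not with TMM factors. Each gene's pair of counts was tested against the totals of the libraries with an exact binomial test (two-sided), and p-values were adjusted by Benjamini-Hochberg over the 14536 genes that had 10 or more counts in all. By this test, 9 of 10 members differed between the libraries, and all 9 were lower in replicate 2. Over all genes tested, 60.8% differed, with 45.7% lower and 15.1% higher in replicate 2. This test compares the 2 libraries and not conditions, and it calls small differences where counts are high. The median log2 ratio of replicate 2 over replicate 1 was −0.78 for the members and −0.31 for all genes tested. With library totals as the scale, under which Nanog was at −0.18 and would change sign with TMM factors, the ES cell markers moved the same way, with 8 of 10 lower in replicate 2, 1 higher, a median log2 ratio of −0.60 and a median level of 183 TPM in replicate 1 and 85.9 TPM in replicate 2. Their part in the drop of the NuRD genes was not tested.

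The size of the drop varied widely among the members. Mta2 fell by 1.54 on the log2 scale (95% exact interval −1.68 to −1.40, adjusted p = 2.04e-118, exact binomial), and 8.64% of the genes tested had a larger log2 ratio in either direction. Mta1 fell by 1.26 and Chd4 by 1.10. Hdac1 fell by 0.84, Mta3 by 0.72 and Gatad2a by 0.57. Hdac2 fell by only 0.21 (−0.25 to −0.17), on counts far higher than those of the other members (adjusted p = 1.81e-22, exact binomial). Mbd3 and Gatad2b were near the threshold, at an adjusted p of 0.0489 and 0.0473 in the exact binomial test. Mbd2, at −0.13 (−0.31 to 0.06), did not pass (adjusted p = 0.237, exact binomial).

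The ratio between the libraries moved with transcript GC content. Spearman's rho between the log2 ratio and GC content was −0.66 across the 9241 autosomal genes for which both libraries held 50 counts or more. These genes share the same 2 libraries. Over the 10 members it was −0.43, also a description only. Measured against a polynomial trend through those autosomal genes, 8 of 10 members lay below the trend, with a median residual of −0.39. Mta2 lay farthest below, at −0.92, and Mbd2 farthest above, at 0.62. When the expected ratio of each gene was taken from the trend, 6 members differed from it, 5 below and Mbd2 above, against 44.6% of all genes tested, 21.6% below and 23.0% above. Mbd3, Mta3, Gatad2a and Gatad2b were not called in that test. The trend near the GC content of Mbd3 rests on 68 genes.

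The number of members called depended on how the libraries were scaled. TMM factors moved every log2 ratio up by 0.26 and DESeq2 size factors moved it up by 0.31, which left the median of all genes tested at −0.05 and 0.0033. With TMM factors 6 members were lower in replicate 2 and 0 were higher, where 57.7% of all genes tested were called, 28.9% lower and 28.8% higher. The 6 were Chd4, Mta1, Mta2, Mta3, Hdac1 and Gatad2a. With DESeq2 size factors the same 6 were lower and Hdac2 was higher (adjusted p = 7.31e-06, exact binomial), where 57.8% of all genes were called, 26.1% lower and 31.6% higher. Hdac2, Mbd2 and Gatad2b changed sign under both scalings, and none of them was called with TMM factors. When 10 counts were asked of both libraries, 9 members were called, all lower, against 65.2% of all genes and 47.7% lower. With no filter 7 were called, all lower, against 48.5% and 36.4%.

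**Figure D3:**
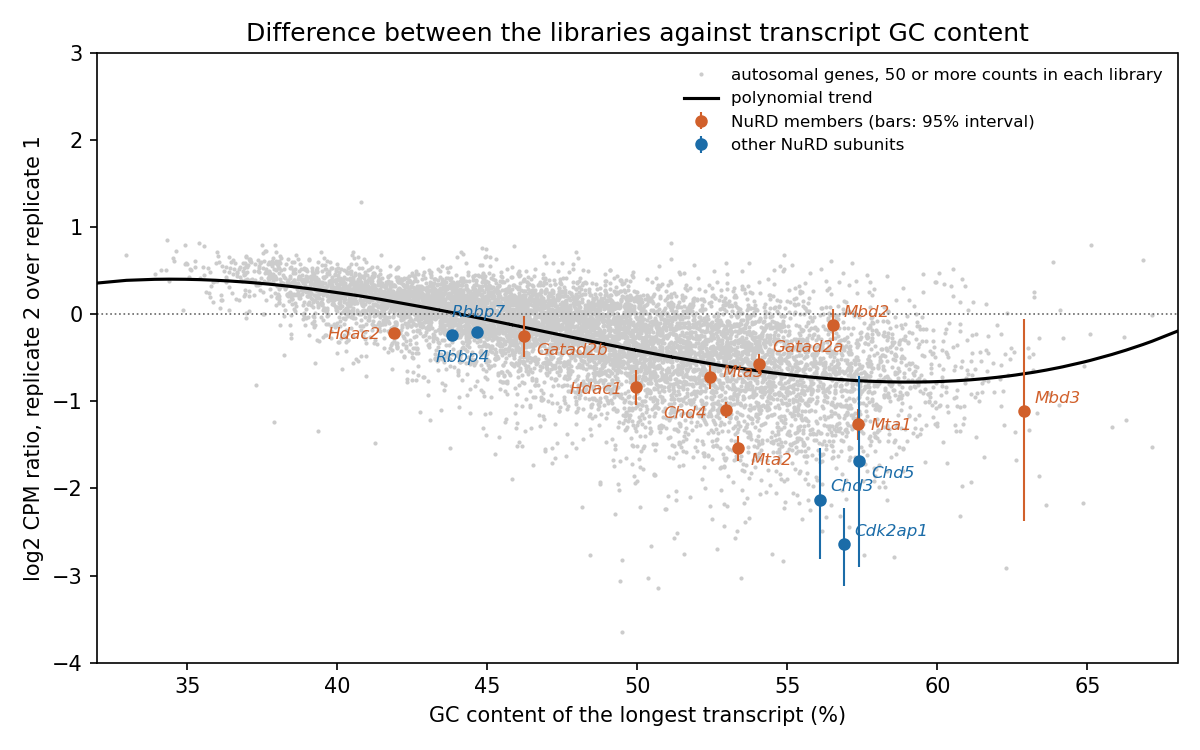
Log2 CPM ratio of replicate 2 over replicate 1 against the GC content of the longest transcript, with autosomal genes in grey, their polynomial trend as a black line, NuRD members in orange and the other NuRD subunits in blue, each with its 95% exact interval. With totals as the scale all 15 subunits lie below 0 (Hdac2, Mbd2, Gatad2b, Rbbp4 and Rbbp7 change sign with TMM factors), with Hdac2, Rbbp4 and Rbbp7 at low GC content near 0, and Cdk2ap1 lowest at −2.64.

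Of the remaining subunits, the histone binding proteins Rbbp4 and Rbbp7 were near the level of Hdac2 or above it. Rbbp4, which lies 180733 bases from Hdac1 on chromosome 4, had 10690 and 7725 counts, or 306 ± 23.1 TPM. Rbbp7, the 1 X-linked subunit of the 15, had 24799 and 18417 counts, or 1352 ± 75.9 TPM. Both also belong to PRC2 and other complexes. Cdk2ap1, a small subunit of the complex, had 361 counts in replicate 1 and 49 in replicate 2, the largest difference of all subunits. Its level of 13.5 ± 13.6 TPM is uncertain, since 88.9% of its 50-base words also occur in Gm12184, a gene on chromosome 11. Chd3, Chd5 and these 3 subunits were lower in replicate 2 by the exact binomial test, against 45.7% of all genes tested, but Rbbp4 and Rbbp7 changed sign with TMM factors and with DESeq2 size factors. Rbbp7 was then called higher with both (adjusted p = 0.000377 and 4.84e-14, exact binomial). Rbbp4 was called higher with DESeq2 size factors (adjusted p = 0.00286, exact binomial) and not with TMM factors (adjusted p = 0.612, exact binomial). Against the GC trend, Rbbp4 and Rbbp7 were called lower (adjusted p = 1.32e-32 and 8.29e-31, exact binomial). Chd5 was not called in that test (adjusted p = 0.13, exact binomial).

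Transcripts of proteins that work with NuRD, or that share its deacetylases, were listed for comparison. Of 17 genes for NuRD partners, 15 reached 10 counts in both libraries, and the median was 20.8 TPM. With exonic length the highest was Kdm1a, the histone demethylase that also joins CoREST, at 248 ± 26.2 TPM, but with the deposited length it was at 75.7 TPM, below Wdr5 at 122 TPM. Wdr5 stood at 175 ± 78.9 TPM and Pwwp2a at 144 ± 19.7 TPM. By the exact binomial test, in which 15.1% of all genes were higher in replicate 2 and 45.7% were lower, 11 of the 17 were lower in replicate 2 and 2 were higher, and Zfp687 fell by 1.51 on the log2 scale, the most of the list. The 13 SIN3 genes had a median of 39.7 TPM, with 10 lower and 1 higher. Their median log2 ratio of −0.27 is about the size of the 0.26 that TMM factors add to every ratio. Sap30 led them at 368 ± 87.3 TPM, followed by Arid4b at 97.0 ± 17.3 TPM and the scaffold Sin3a at 91.9 ± 15.2 TPM. Sin3a was above Arid4b in replicate 1 (103 and 84.7 TPM) and below it in replicate 2 (81.1 and 109 TPM). With the deposited length Sin3a was above Arid4b, at 44.3 and 27.8 TPM. Brms1 fell by 1.58. The 12 CoREST, MiDAC and MIER genes of the table had a median of 18.9 TPM, with 8 lower and 3 higher. After Kdm1a, which is also on this list, and again with exonic length, Mier1 was at 149 ± 33.9 TPM and Mier3 at 70.5 ± 15.3 TPM, while Hmg20b fell by 2.14. With the deposited length Mier1, at 79.1 TPM, was above Kdm1a. The calls on these lists were counted only with library totals as the scale.

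Other chromatin complexes were set beside the NuRD members, whose median was 34.5 TPM. The 9 PRC2 genes had a median of 158 TPM, with Mtf2 at 1378 ± 298 TPM and Suz12 at 1350 ± 217 TPM, ahead of Eed at 551 ± 41.5 TPM. The 14 BAF genes had a median of 19.8 TPM, below that of the NuRD members, but with the deposited length the order was opposite, at 14.2 TPM for BAF and 13.1 TPM for NuRD. With exonic length the highest BAF gene was Actl6a at 303 ± 22.7 TPM, followed by Ss18 at 165 ± 22.9 TPM and Smarce1 at 130 ± 6.67 TPM. In the exact binomial test with library totals as the scale, 5 of the 8 PRC2 genes tested were higher in replicate 2 and 3 were lower, against 0 and 9 of the 10 NuRD members. Among the 14 BAF genes 1 was higher and 8 were lower. Over all genes tested, 15.1% were higher and 45.7% were lower. With TMM factors these shares were 28.8% and 28.9%, and the PRC2 and BAF genes were not counted with them. Ezh1 fell by 1.18 and Smarcd2 by 1.45, the most of their lists. The median GC content was 47.8% for PRC2, 53.2% for the NuRD members and 54.1% for BAF. With library totals as the scale, the median log2 ratio was 0.07, −0.78 and −0.45 in the same order. The differences between these lists were not tested.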

How the data were processed

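Poly(A) RNA had been sequenced from 2 replicates of 1 group. The authors deposited raw counts. The header of their table names featureCounts 1.5.2, run on read pairs with the reverse strand setting over whole transcript spans of a non-redundant mm10 annotation. Bowtie2 (2.3.2) and STAR (2.4.2a) are named in the submitters' processing notes. The length deposited beside the counts equalled the span with introns for all 22556 genes. TPM was therefore computed with the union of exons of GENCODE M21 basic (GRCm38), matched for 98.1% of the genes, because libraries of mRNA hold few introns. GC content was that of the longest transcript.

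Library totals were 23716499 and 20275749 counts, so that a count of 0 allows 3 counts, or 0.126 and 0.148 CPM. Columns were matched to samples by name apart from a letter b in the sample descriptions. The exact binomial test (scipy 1.17.1) was checked on simulated counts whose only spread, apart from genes changed on purpose, was sampling noise. That check does not cover other differences between real libraries. Log2 ratios had 0.5 counts added. TMM factors came from edgeR 4.0.16 and size factors from DESeq2 1.42.0 (R 4.3.3). The GC trend was a polynomial of degree 3. Members and gene lists were chosen with earlier results of these data known. The genes named are the members, the other subunits, and from each other list those among the 3 with the highest mean TPM or the called gene with the largest difference. Lum, Sox1 and Olig2 were named after their values were seen.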

Additional observations from a re-analysis of the deposited data

How the results depend on the processing

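Over 10 results, 63 alternatives were tried, of which 50 left the result unchanged by the spread between replicates or, for counts, by a factor of 1.5. These limits are wide. Leaving out a library was judged by the spread of those same libraries. Among the paralogue pairs, leaving out copied words could move only Hdac1 over Hdac2. A fall from 9 to 6 called members counted as unchanged, as did 35 of 45 pairs of members keeping their order. Gene length had the widest effect. With the deposited length, which includes introns, the median of the members was 13.1 TPM (28.2 to 44.6 TPM over single libraries with exonic length, 34.5 for their mean), and the log2 ratio was −4.26 for Hdac1 over Hdac2, −1.82 for Mbd3 over Mbd2, 2.70 for Mta2 over Mta1 and 3.63 for Mta2 over Mta3. Gatad2a over Gatad2b reversed to −0.44, and the median of the NuRD members fell below that of BAF (14.2 TPM). With no length (CPM), Hdac1 over Hdac2 was −4.28 and Gatad2a over Gatad2b was 2.01. Alternatives added after the data had been seen moved the same pairs: without copied words Hdac1 over Hdac2 was −1.96, and inside the counted span Gatad2a over Gatad2b was 0.50. Across the libraries left out in turn, the log2 ratio ran from 0.45 to 0.73 for Mta2 over Mta1, from −0.34 to 0.48 for Mta2 over Mta3, and from 4.70 to 5.75 for Chd4 over Chd3. Without replicate 1, Mta2 over Mta3 reversed to −0.34. Of the 45 pairs of members, 35 to 45 kept their order over the alternatives, the fewest with the deposited length. The number of members called between the libraries was 9, and ran from 6 with TMM factors or the GC trend to 9 when both libraries needed 10 counts. The binomial test needs both libraries, so none was left out there. No paired analysis was possible because only a single group of samples exists. Depth limits Mbd3, Chd3 and Chd5 most.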

Other observations

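Paralogues of the members outside the complex were also measured. Of the 9 other histone deacetylase genes, 7 reached 10 counts in both libraries and the median was 7.50 TPM. With exonic length Hdac8, which is X-linked, was the highest at 71.9 ± 3.67 TPM (SD, n = 2), above Hdac1 but not above its 83.5 TPM without copied words. With the deposited length Hdac8 was at 3.29 TPM, below Hdac3 at 16.3 TPM and Hdac4 at 3.75 TPM. Hdac3, the deacetylase of the NCoR and SMRT corepressors, was at 41.2 TPM in the first library and 15.1 TPM in the second. Of the 5 other genes of the MBD family, Mbd4 stood at 34.6 ± 1.38 TPM, Mbd5 at 22.4 ± 2.35 TPM and Mbd1 at 21.8 ± 0.578 TPM. Mbd3 was lower than each of these, but the lowest of the 5 was at 0.178 TPM, below Mbd3. The 6 other CHD remodellers had a median of 71.7 TPM, with Chd1 at 146 ± 10.1 TPM, Chd9 at 88.5 ± 7.78 TPM and Chd2 at 84.6 ± 9.82 TPM. In the exact binomial test with library totals as the scale, replicate 2 was higher for 2 of the CHD genes and lower for 2. Of all genes tested, 15.1% were higher and 45.7% were lower.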
